A study of Mus musculus with 5 samples.

Results

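Cytosolic ribosomal protein genes encode the proteins that, with ribosomal RNA, make up the large and the small subunit of the ribosome outside mitochondria. They were taken by name from the kidney expression table as symbols that start with Rpl or Rps followed by a digit, together with Rplp0, Rplp1, Rplp2 and Rpsa. Of 100 names that start in this way, 13 were dropped because they are Rps6k kinases (10), pseudogene symbols containing -ps (2) or Rps19bp1, which left 87 of the 21878 genes in the table. The 87 comprised 54 genes of the large subunit and 33 of the small subunit. Among them were 77 standard genes (46 large, 31 small) and 10 paralogs, retrogenes or -like copies (Rpl3l, Rpl7l1, Rpl10l, Rpl22l1, Rpl32l, Rpl36al, Rpl37rt, Rpl39l, Rps27l and Rps27rt). The naming rule uses no measured value, but this set of genes was chosen with earlier results of these data known.

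The kidneys came from NZB/NZW F1 mice, the offspring of NZB/BINJ mothers and NZW/LacJ fathers, a hybrid used as a model of lupus because it develops autoimmune nephritis without induction. The diosmetin group (3 libraries) had received this plant flavone at 50 mg/kg by intraperitoneal injection every other day for 6 weeks, and the vehicle group (2 libraries) had received the vehicle alone. Neither age nor sex is stated in the labels. The stated purpose of the study concerned renal type I interferon signalling, not ribosomal protein genes. The labels do not say whether each library came from a separate mouse, so p-values measure the spread between these libraries, which may be technical. With 3 libraries against 2, an exact permutation test over libraries has 10 label orders and cannot give a two-sided p below 0.1.

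Ribosomal proteins are needed in near-equal amounts, since each standard ribosome carries a single copy of most of them, and the exceptions include the acidic stalk proteins Rplp1 and Rplp2. Their mRNAs typically begin with a run of pyrimidines, the terminal oligopyrimidine (TOP) motif, through which mTOR signalling and the RNA-binding protein Larp1 set how strongly they are translated. The genes have left many processed pseudogenes in the mouse genome, which makes their short, abundant transcripts difficult to count. Expression is given here as FPKM, fragments scaled to transcript length and to the library total, from total RNA depleted of ribosomal RNA. In whole kidney, more cells of a type that is rich in these transcripts and more transcript per cell cannot be told apart.

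Transcript starts are shown for the 4 members with the largest differences between the groups, for the parent gene Rps27 with its paralog Rps27l and its retrogene Rps27rt, and for Rps6, Rpl15, Rpl35 and Rpl27a, which carry long pyrimidine runs. Each sequence holds 30 bases, 10 before and 20 from the annotated start, read 5′ to 3′ on the gene's strand from the RefSeq promoter table of GRCm38.p6. Capitals mark the longest run of C and T within those bases.
Rps18, chr17:33955646-33955675, minus strand: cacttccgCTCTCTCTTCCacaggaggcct
Rpl26, chr11:68901556-68901585, plus strand: ggcaaCTTacagaaccggaagtcgcgtgta
Rpl12, chr2:32961702-32961731, plus strand: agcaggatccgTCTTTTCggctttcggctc
Rps28, chr17:33824543-33824572, minus strand: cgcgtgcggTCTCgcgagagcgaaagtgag
Rps27, chr3:90213629-90213658, minus strand: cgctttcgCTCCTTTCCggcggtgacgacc
Rps27l, chr9:66946076-66946105, plus strand: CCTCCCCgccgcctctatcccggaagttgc
Rps27rt, chr9:114982720-114982749, minus strand: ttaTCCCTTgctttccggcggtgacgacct
Rps6, chr4:86857348-86857377, minus strand: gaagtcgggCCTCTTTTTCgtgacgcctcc
Rpl15, chr14:18270967-18270996, minus strand: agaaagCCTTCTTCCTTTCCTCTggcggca
Rpl35, chr2:39005112-39005141, minus strand: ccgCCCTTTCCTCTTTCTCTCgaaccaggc
Rpl27a, chr7:109519185-109519214, plus strand: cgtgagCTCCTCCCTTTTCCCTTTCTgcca

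Among the 67 members with an entry in that promoter table, 51 (76.1%) had a run of at least 8 pyrimidines on the sense strand between 30 bases before and 50 bases after a start, against 30.8% of the 10543 other tested genes with an entry and 32.3% of all 27025 genes with an entry. The letters CTTTCC on the sense strand of the same window were found in 29.9% of members, against 4.0% of other tested genes and 4.4% of all genes. CTCTTTC on the sense strand was found in 17.9%, against 1.1% of other tested genes and 1.3% of all genes. It can overlap CTTTCC, as in Rpl28. The letters CCGGAAG, searched on both strands of the whole 300 bases, were in 38.8% of members, against 18.7% of other tested genes and 9.9% of all genes. Rps18, Rps27 and Rps6 carry their run across the start, whereas the 30 bases printed for Rpl26 and Rps28 hold no pyrimidine run longer than 4. Within the longer window searched, Rpl26 does have a run, of 14 bases, and is counted among the 51, while the longest run of Rps28 is 5. The retrogene Rps27rt shares the stretch after the run with its parent Rps27, offset by 1 base. These matches describe letters around annotated starts, which need not be the starts used in the kidney.

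The standard members were among the most abundant transcripts of the kidney libraries. Their median level, as a mean over the 5 libraries, was 177 FPKM, with quartiles of 114 and 276, against a median of 8.62 FPKM over all genes tested. Of the 77 standard members, 63 averaged at least 100 FPKM, and members of all kinds made up 13 of the 100 and 62 of the 500 genes with the highest mean FPKM. The levels nevertheless spanned from 5.73 FPKM for Rpl21 to 507 FPKM for Rplp1. The standard large subunit genes had a median of 176 FPKM and the small subunit genes of 194 FPKM, and their quartiles (107 to 249 and 128 to 282 FPKM) overlapped widely. FPKM is a level per length, so it rests on the length assigned to each gene. The genes under 50 FPKM (Rpl21, Rpl22, Rpl26, Rpl29, Rpl35a, Rps15a, Rps18 and Rps20) included several matched to long reference transcripts, of 5179 bases for Rps15a, 3706 for Rps20, 2051 for Rpl22 and 1856 for Rpl21. How far length or fragments shared with pseudogenes set these low levels was not tested.

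Most standard members had higher FPKM in all 3 diosmetin libraries than in both vehicle libraries, by a small margin, and no single member passed the test adjusted over all genes. The summed FPKM of the 87 genes was 16020, 17159 and 15717 in the diosmetin libraries, against 13856 and 14515 in the vehicle libraries. The diosmetin sums all lay above the vehicle sums, and the mean sum was 16299 ± 760 in diosmetin and 14186 ± 466 in vehicle (SD, n = 3 and 2), a ratio of 1.149. As a share of the library's total FPKM, the genes took 4.95, 5.39 and 4.91% in diosmetin libraries, against 4.29 and 4.5% in vehicle libraries.

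Both subunits contributed. The large subunit genes summed to 9224, 9914 and 9047 FPKM in diosmetin libraries, against 8072 and 8443 FPKM in vehicle libraries, a ratio of the means of 1.138. The small subunit genes summed to 6797, 7244 and 6670 FPKM in diosmetin libraries, against 5785 and 6073 FPKM in vehicle libraries, a ratio of 1.164. Neither pair of groups overlapped. The small subunit sum divided by the large subunit sum was 0.737, 0.731 and 0.737 in diosmetin libraries, against 0.717 and 0.719 in vehicle libraries. This ratio needs no library scaling, and it too was higher in every diosmetin library. The difference was small, with means of 0.735 and 0.718, which are 1.024-fold apart, and it was not tested.

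**Figure D1:**
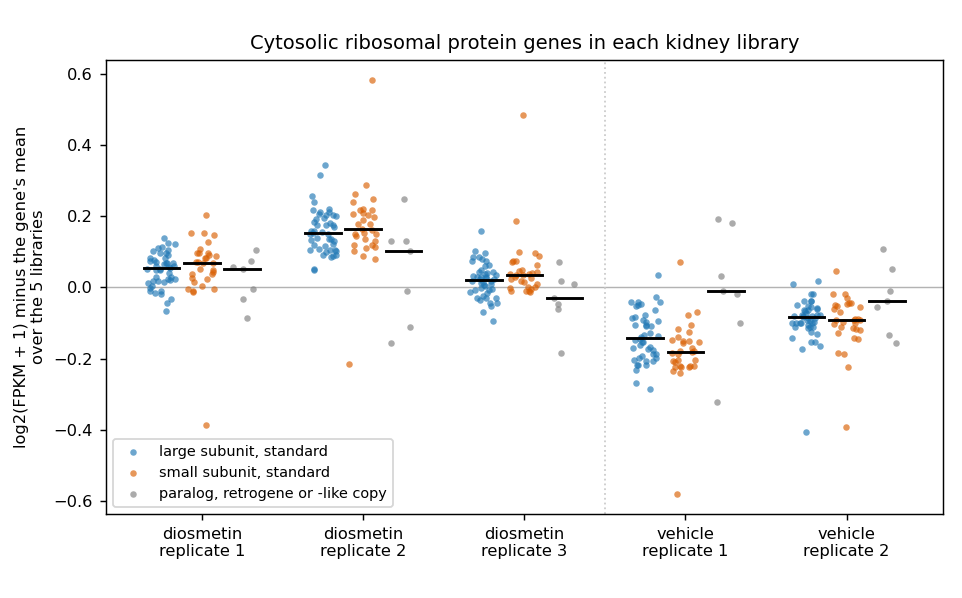
Each point is 1 tested ribosomal protein gene in 1 library, as its log2(FPKM + 1) minus that gene's mean over the 5 libraries (vertical axis), with black bars at the medians of the large subunit, small subunit and copy groups. The standard genes sit highest in diosmetin replicate 2 and lowest in vehicle replicate 1. The copies share this only in part. Rpl22l1, Rpl36al, Rpl7l1 and Rpl37rt were also highest in diosmetin replicate 2, whereas Rpl32l, Rps27l and Rps27rt were highest in a vehicle library. Of the copies, only Rpl22l1 and Rpl7l1 were lowest in vehicle replicate 1.

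The libraries within a group were not alike. Of the 84 members with a mean FPKM of at least 0.5, which entered the fit, 78 were highest in diosmetin replicate 2, and 62 were lowest in vehicle replicate 1 and 16 in vehicle replicate 2. The plot of values by library shows this order for both subunits. The median centred log2 value of the members was 0.06, 0.15 and 0.02 in the diosmetin libraries, against -0.15 and -0.09 in the vehicle libraries. Vehicle replicate 1, where 62 members were lowest, also had the lowest estimated depth. Diosmetin replicate 2, where 78 were highest, had the next lowest. Any part of depth in the order of the members was not tested. Depth was estimated from the steps of the lowest values at 46.8, 43.0 and 45.1 M fragments for diosmetin replicates 1 to 3, against 38.4 and 48.4 M for vehicle replicates 1 and 2. At that depth the standard members with a reference length rested on at least 343 fragments each in their poorest library (median 5835), so counting error was at most 5.4% of a value and 1.31% at the median.

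In the fit, 79 of the 84 tested members had a higher mean in diosmetin, against a background of 63.9% of all 13290 genes tested. Their groups did not overlap, with diosmetin higher, in 70 members, where 18.3% of all genes met that criterion. None was without overlap in the other direction, which 6.17% of all genes were. The log2 difference of log2(FPKM + 1), diosmetin minus vehicle, had a median of 0.20 over the members, quartiles of 0.14 and 0.25 and a range of -0.12 to 0.81, beside a median of 0.04 over all genes tested. At an adjusted p of 0.05 in limma (Benjamini-Hochberg over all genes) no member was called in either direction. No gene of the table was called either (0% of 13290), with 0.738 as the lowest adjusted p. Without adjustment, 39 members had p under 0.05 and were higher in diosmetin, where 4.68% of all genes were, and no member was lower. Members share libraries, and a library that is high for one is high for most, so these counts are not counts of independent observations.

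By subunit, the median log2 difference was 0.17 over the 51 tested large subunit genes, 40 of them without overlap, and 0.21 over the 33 small subunit genes, 30 of them without overlap. The gap of 0.04 between these medians kept its sign under each other setting tried, but it was 0.01 without vehicle replicate 1. Among standard genes, 76 of 77 had a higher mean in diosmetin, against 63.9% of all genes, and 69 did not overlap. Over all genes tested, 18.3% were without overlap with diosmetin higher, which is the background for the subunit counts too. The 1 standard gene with a lower mean was Rps27a. Rpl32l and Rpl37rt, which both had lower means, were placed with the copies after their values were seen, and with them among the standard genes the count was 76 of 79.

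**Figure D2:**
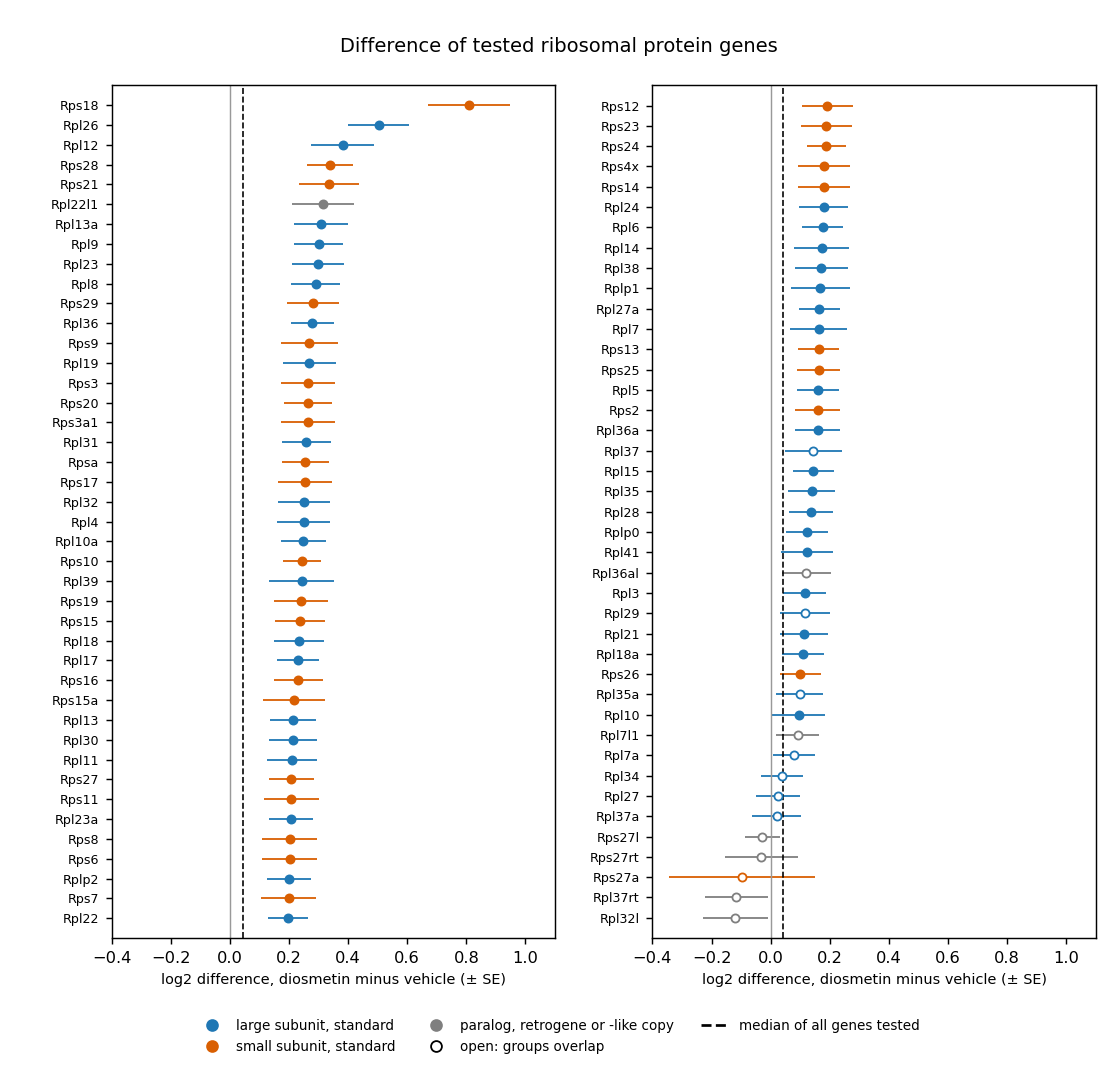
Points give the log2(FPKM + 1) difference, diosmetin minus vehicle, of tested ribosomal protein genes with bars of 1 SE from limma, in descending order from the top left. Filled points are genes with no overlap between the groups, and the dashed line is the median of all genes tested, 0.04.

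Rps18, a protein of the head of the small subunit, had the largest difference of the members. Its FPKM was 39.3, 51.4 and 38.8 in diosmetin libraries, against 22.4 and 25.7 in vehicle libraries. The lowest diosmetin value was above the highest vehicle value, and the means of 43.2 ± 7.13 in diosmetin and 24.1 ± 2.31 FPKM in vehicle stood 1.79-fold apart. The log2 difference was 0.81 ± 0.14 (SE, limma unadjusted p = 0.00102, adjusted p = 0.738). Rps18 spans chr17:33951998-33955665 in GRCm38.p6, and 86.7% of the 50-base words of its transcript also occur in other annotated genes (64.6% in pseudogenes), so its level here is uncertain.

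Rpl26, a large subunit protein that in human cells also binds the p53 mRNA, came next by size. It had 29.9, 35.6 and 31.2 FPKM in diosmetin libraries, against 24.1 and 20.8 FPKM in vehicle libraries, with no overlap. Its log2 difference was 0.50 ± 0.10 (SE, limma unadjusted p = 0.00255, adjusted p = 0.738), and 71.3% of its 50-base words occur in other genes. Rpl12, which sits at the base of the ribosomal stalk, had 190.8, 215.7 and 173.6 FPKM in diosmetin libraries, against 142.0 and 153.4 FPKM in vehicle libraries. The groups were again apart, by 0.38 ± 0.11 on the log2 scale.

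Rps28 had 240.4, 249.1 and 223.9 FPKM in diosmetin libraries, against 185.6 and 190.1 FPKM in vehicle libraries. It is a short protein of the small subunit, and its log2 difference was 0.34 ± 0.08 (SE, limma unadjusted p = 0.00482, adjusted p = 0.738). Rps10, also of the small subunit, had little scatter (SE 0.06 on the log2 scale), with 114.8, 121.4 and 115.0 FPKM in diosmetin libraries against 98.3 and 99.0 FPKM in vehicle libraries. Rpl36 had 92.7, 99.7 and 87.7 FPKM in diosmetin libraries against 76.5 and 76.8 FPKM in vehicle libraries, and Rpl9 had 278.4, 307.1 and 280.1 FPKM against 229.5 and 238.3 FPKM. These large subunit genes differed by 0.28 ± 0.07 and 0.30 ± 0.08 on the log2 scale, with no overlap between the groups. Of their 50-base words, 81.1% in Rpl36 and 93.3% in Rpl9 occur in other genes, so their levels are uncertain too. Across the 84 members the log2 difference showed little relation to the log2 mean FPKM (Pearson r = 0.19, Spearman rho = 0.18, across genes that share the same 5 libraries).

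The acidic stalk, which recruits the elongation factors to the ribosome, followed the other large subunit genes. Rplp1 had 540.6, 561.2 and 490.4 FPKM in diosmetin libraries, against 460.6 and 483.0 FPKM in vehicle libraries, narrowly without overlap. Rplp2 had 180.0, 186.6 and 182.4 FPKM in diosmetin libraries against 151.8 and 167.0 FPKM in vehicle libraries, and Rplp0, the protein that anchors the stalk, had 232.7, 245.3 and 230.1 FPKM against 215.1 and 218.1 FPKM. The log2 differences were 0.17 ± 0.10, 0.20 ± 0.07 and 0.12 ± 0.07.

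Rpl5 and Rpl11 join 5S ribosomal RNA in a particle that, when ribosome assembly is disturbed, binds Mdm2 and stabilises p53. Rpl5 had 155.8, 164.8 and 154.5 FPKM in diosmetin libraries, against 136.9 and 146.2 FPKM in vehicle libraries. Rpl11 had 178.4, 197.9 and 170.6 FPKM in diosmetin libraries, against 154.2 and 160.2 FPKM in vehicle libraries. Both were without overlap, by 0.16 ± 0.07 and 0.21 ± 0.09 on the log2 scale, which is close to the member median. Other genes hold 93.8% of the 50-base words of Rpl5 and 62.2% of those of Rpl11.

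Rps6, the substrate of S6 kinase, had 157.2, 176.0 and 169.5 FPKM in diosmetin libraries, against 135.4 and 156.2 FPKM in vehicle libraries. Its groups were only narrowly apart. Rps19, whose human gene is the most frequently mutated in Diamond-Blackfan anaemia, had 155.1, 175.1 and 153.5 FPKM in diosmetin libraries, against 128.9 and 143.4 FPKM in vehicle libraries. Rps3, at the mRNA entry channel, had 124.9, 147.3 and 131.2 FPKM in diosmetin libraries, against 108.0 and 115.2 FPKM in vehicle libraries. Only 3.0% of the 50-base words of Rps3 occur in other genes, against 84.6% for Rps6, 25.3% for Rps19 and 44.0% for Rpsa. Rpsa, known also as the laminin receptor, had 206.0, 219.1 and 198.8 FPKM in diosmetin libraries, against 167.4 and 180.8 FPKM in vehicle libraries. The log2 differences of these 4 genes ran from 0.20 for Rps6 to 0.26 for Rps3, all without overlap.

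Rpl13a, which in human monocytes is released from the ribosome after interferon-gamma and silences inflammatory mRNAs, had 235.4, 264.2 and 243.9 FPKM in diosmetin libraries, against 188.3 and 212.1 FPKM in vehicle libraries. The log2 difference was 0.31 ± 0.09. Rpl3, which reaches towards the peptidyl transferase centre, had 203.7, 206.5 and 190.8 FPKM in diosmetin libraries, against 182.7 and 186.7 FPKM in vehicle libraries. Its difference of 0.12 ± 0.07 was among the smaller ones. The X-linked genes Rpl10, Rpl36a, Rpl39 and Rps4x were without overlap too, with log2 differences of 0.09, 0.16, 0.24 and 0.18. Rpl41, the smallest ribosomal protein, had 504.0, 526.0 and 504.3 FPKM in diosmetin libraries, against 458.2 and 481.1 FPKM in vehicle libraries. Rpl7 and Rps23, also among the 5 most abundant members, differed by 0.16 and 0.19 on the log2 scale.

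A few standard large subunit genes did not separate the groups. Rpl27 had 98.8, 109.5 and 99.8 FPKM in diosmetin libraries, against 98.9 and 102.7 FPKM in vehicle libraries. Rpl34 had 59.7, 63.9 and 58.8 FPKM in diosmetin libraries, against 61.5 and 56.7 FPKM in vehicle libraries. Rpl37a had 296.0, 320.8 and 319.4 FPKM in diosmetin libraries, against 301.3 and 314.1 FPKM in vehicle libraries. All 3 overlapped, with log2 differences of 0.03, 0.04 and 0.02, and under median-of-ratios scaling these became -0.03, -0.02 and -0.04. Rpl7a, Rpl29, Rpl35a and Rpl37 overlapped as well, with log2 differences between 0.08 and 0.15.

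Rps27a, which encodes ubiquitin fused to a small subunit protein, scattered widely within the diosmetin group. It had 84.2, 94.9 and 154.9 FPKM in diosmetin libraries, against 116.0 and 114.0 FPKM in vehicle libraries. Its diosmetin values lay on both sides of the vehicle values, and the log2 difference of -0.10 ± 0.25 had the largest SE of the members. Fau and Rack1 belong with the ribosome but fall outside the naming rule. Fau, a ubiquitin-like fusion, had a log2 difference of 0.20 ± 0.08, and Rack1, a scaffold bound to the small subunit, of 0.31 ± 0.10. Both were without overlap.

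Of the 7 paralogs, retrogenes and -like copies that were tested, 3 had a higher mean in diosmetin, against 63.9% of all genes. Rpl32l and Rpl37rt were placed among these copies after their values were seen. Only Rpl22l1 was without overlap with diosmetin higher (1 of 7, 14.3%), a share near the 18.3% of all genes. The median log2 difference of the copies was -0.03, beside 0.04 over all genes. Rpl22l1, a paralog that in mice is held down by Rpl22, had 35.8, 41.1 and 36.2 FPKM in diosmetin libraries, against 27.3 and 33.1 FPKM in vehicle libraries. Rpl22 itself had 44.0, 48.7 and 45.4 FPKM in diosmetin libraries, against 39.5 and 40.5 FPKM in vehicle libraries. The ratio of Rpl22l1 to Rpl22 was 0.815, 0.844 and 0.798 in diosmetin libraries, against 0.692 and 0.817 in vehicle libraries, and these overlapped.

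Rps27l, a p53 target, had 64.3, 65.4 and 66.2 FPKM in diosmetin libraries, against 65 and 68.2 FPKM in vehicle libraries. Its parent Rps27 had 297.6, 310.5 and 292.6 FPKM in diosmetin libraries, against 263.4 and 256.2 FPKM in vehicle libraries. The paralog thus overlapped where the parent did not, and the ratio of Rps27l to Rps27 was 0.216, 0.211 and 0.226 in diosmetin libraries, against 0.247 and 0.266 in vehicle libraries. The ratio was lower in every diosmetin library and, being taken within a library, does not depend on a library's scaling factor. The retrogenes Rps27rt (22.4, 19.1 and 20.3 FPKM in diosmetin libraries against 23.8 and 18.5 FPKM in vehicle libraries) and Rpl37rt, and Rpl32l, had lower means in diosmetin with overlapping groups. Of the 50-base words, 98.6% in Rps27 and 91.1% in Rps27rt occur in other genes. Fragments of Rps27 and Rps27rt may thus have been exchanged in counting. The level of Rps27, and with it the ratio of Rps27l to Rps27, is therefore uncertain. Rpl36al and Rpl7l1 overlapped between groups as well.

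Tissue-restricted paralogs were near the floor of the table. Rpl3l, the paralog of heart and skeletal muscle, was between 0.225 and 0.415 FPKM in diosmetin libraries and at 0.364 and 0.280 FPKM in vehicle libraries. Rpl39l, of the male germ line, stayed at or under 0.0992 FPKM in diosmetin libraries and 0.144 FPKM in vehicle libraries, and the testis paralog Rpl10l was listed at 0 in all 5. These 3 were not tested.

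Scaling changed the size of the difference but not its direction for the group. The median-of-ratios factors were 0.987, 1.048 and 1.018 for the diosmetin libraries, against 0.956 and 1.002 for the vehicle libraries. They thus put diosmetin replicate 2 highest and vehicle replicate 1 lowest, as the members did. Computed without the members, the factors were 0.987, 1.047 and 1.018 for the diosmetin libraries, against 0.956 and 1.002 for the vehicle libraries. After this scaling the summed FPKM was 16225, 16376 and 15445 in diosmetin libraries, against 14496 and 14491 in vehicle libraries, and the ratio of the means was 1.105 in place of 1.149. The median log2 difference became 0.14 over the members, where that over all genes was -0.004. A higher mean was kept by 76 members, where 6488 of 13290 genes had one. With diosmetin higher, 62 members were without overlap, where 11.7% of all genes were. Under this scaling 2 copies that overlapped as deposited, Rps27l and Rpl37rt, were without overlap with diosmetin lower, where 10.6% of all genes were. At an unadjusted p under 0.05, 22 members were higher, where 2.92% of all genes were. After rescaling to TPM the members' median was 0.21, and the plot of scalings shows the other choices by subunit.

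**Figure D3:**
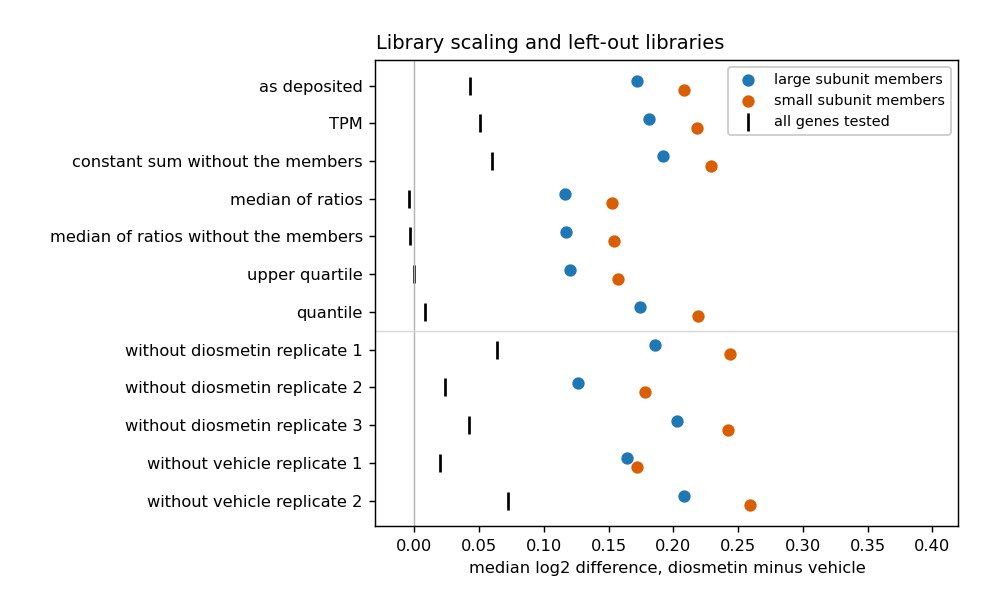
Points give the median log2(FPKM + 1) difference, diosmetin minus vehicle, of large and small subunit genes, and ticks that of all genes tested, under 7 scalings (above the line) and with 1 library left out (below it). Both subunits stay above all genes in every row, and the medians are smallest under median-of-ratios scaling.

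Leaving out single libraries moved the count of small unadjusted p-values more than the medians. The median over the members was between 0.16 and 0.24 with any 1 library left out, and between 70 and 76 members were without overlap. Members at an unadjusted p under 0.05 in limma and higher in diosmetin numbered 18 without diosmetin replicate 2, against 39 with all libraries. Of all 13290 genes, 271 met this without diosmetin replicate 2 and 622 with all libraries. Without vehicle replicate 1 a lone vehicle library remains, so only the median is given, 0.17. With any 1 library left out the groups are smaller. The share of all genes without overlap, with diosmetin higher, was then between 20.8 and 45.2%.

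Members with little shared sequence were also looked at apart, in a split added after the data were seen. Of the 82 tested members with a transcript to search, 12 shared under 20% of their 50-base words with other annotated genes. In these 12, among them Rps3, Rps9, Rps20, Rpl4 and Rpl8, the median log2 difference was 0.25 and 10 were without overlap. The copies Rps27l and Rpl7l1, also among the 12, overlapped. In the other 70 the median was 0.19 and 60 were without overlap. Over all genes tested, 18.3% were without overlap with diosmetin higher. Rpl8, a large subunit protein near the peptidyl transferase centre, had 333.5, 364.1 and 337.2 FPKM in diosmetin libraries, against 275.5 and 288.0 FPKM in vehicle libraries. Transcript length and the difference showed little relation (Pearson r = -0.02, Spearman rho = -0.04, across 82 members). Among 97 other genes with transcripts under 1000 bases and at least 100 FPKM, the median log2 difference was 0.02 and 25.8% were without overlap with diosmetin higher. Members with and without a pyrimidine run near the start had similar medians, of 0.19 in the 49 tested members with a run and 0.18 in the 15 without. What part shared sequence, length or abundance had in the difference was not tested.

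As deposited, other gene lists of translation had smaller medians than the standard members, in a comparison without a test. The order turned for elongation factors under quantile scaling (0.23, against 0.21 for standard members) and without diosmetin replicate 1 (0.26, against 0.22). Counts without overlap in these lists are with diosmetin higher unless stated, beside the 18.3% of all genes. Of the 9 tested genes in the elongation factor list, all had a higher mean in diosmetin and 6 were without overlap. Their median log2 difference was 0.16. The list was drawn broadly and also holds Tpt1 and Eef1e1. Eef1a1, which carries aminoacyl-tRNA to the ribosome, had 2697, 2644 and 2627 FPKM in diosmetin libraries, against 2374 and 2489 FPKM in vehicle libraries, and Eef2, which drives translocation, had 680.6, 693.5 and 702.6 FPKM against 629.0 and 629.6 FPKM. Of 48 genes of ribosome biogenesis and RNA polymerase I, 46 had a higher mean and 23 were without overlap, with a median of 0.15. Nop2, an rRNA methyltransferase with the smallest unadjusted p of that list, was at 11.2, 11.2 and 9.76 FPKM in diosmetin libraries against 8.51 and 8.70 FPKM in vehicle libraries. Of 28 initiation factor genes, 24 had a higher mean and 13 were without overlap, with a median of 0.12. In 16 other transcripts known to start with a TOP motif, the median was 0.11 and 8 were without overlap. Eef1a1, Eef2 and Tpt1 are in both this list and that of elongation factors, so the counts of these lists are not separate. None of these genes passed the adjusted test.

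In the mTOR pathway list 5 of 27 genes were without overlap with diosmetin higher, a share near that of all genes, and the median was 0.09. Mtor itself was 30.8, 31.0 and 29.3 FPKM in diosmetin libraries, against 32.4 and 31.8 FPKM in vehicle libraries, without overlap and lower in diosmetin. Eif4ebp1, the translation repressor that mTOR inactivates, was 6.31, 12.2 and 11 FPKM in diosmetin libraries, against 4.78 and 6.04 FPKM in vehicle libraries. Larp1 was 34.4, 35.3 and 35.3 FPKM in diosmetin libraries, against 31.5 and 32.5 FPKM in vehicle libraries. Myc, which drives transcription of ribosomal protein genes, overlapped between the groups. The 77 genes of the mitochondrial ribosome, a separate set of proteins, had a median of 0.06, and 21 of them (27.3%) were without overlap with diosmetin higher and 4 with diosmetin lower, beside 18.3% and 6.17% of all genes. Under median-of-ratios scaling the medians were 0.12 for elongation factors, 0.09 for biogenesis, 0.06 for initiation factors, 0.05 for other TOP transcripts, 0.03 for the mTOR list and 0.01 for mitochondrial ribosomal proteins.

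**Figure D4:**
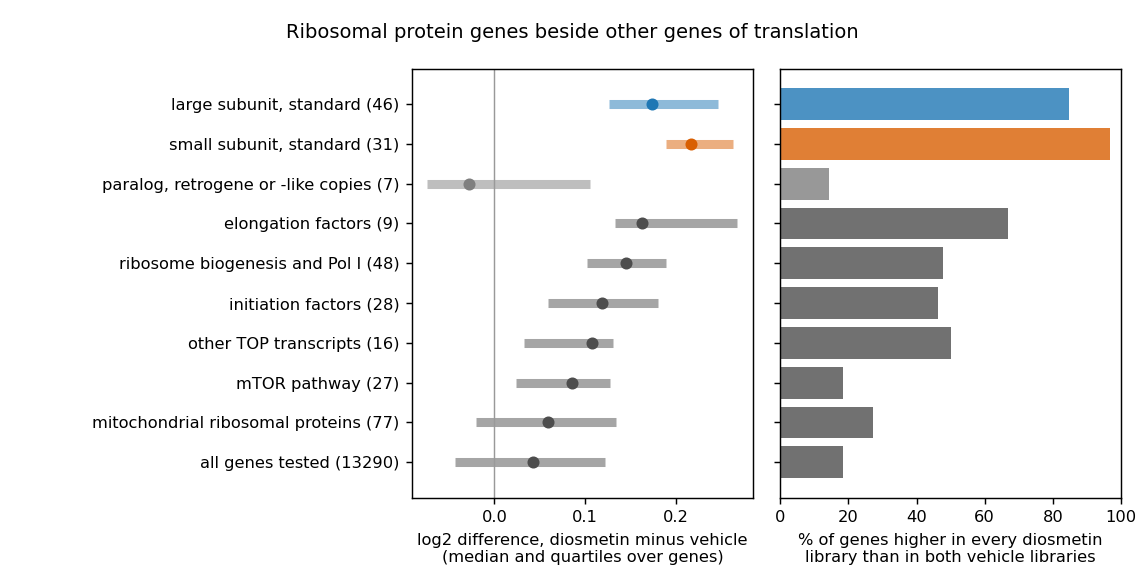
Left, the median (point) and quartiles (bar) of the log2(FPKM + 1) difference, diosmetin minus vehicle, for standard members, copies, 6 other lists of translation genes and all genes tested, and right, the percent of its genes higher in every diosmetin library than in both vehicle libraries; the number of tested genes stands in brackets. The lists of elongation factors and of other TOP transcripts share Eef1a1, Eef2 and Tpt1. Of the sets drawn, the standard genes of both subunits have the highest medians as deposited. Under median-of-ratios scaling elongation factors, at 0.123, pass the large subunit genes, at 0.119. As drawn, the copies and the mitochondrial ribosomal proteins lie near or below all genes.

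Markers of kidney segments differed between the libraries as well. The summed FPKM of 5 proximal tubule markers was 2646, 2036 and 2322 in diosmetin libraries, against 3165 and 2545 in vehicle libraries, with overlap. All 5 had a lower mean in diosmetin, where 63.9% of all genes had a higher one. Of them 2 were without overlap, as were 6.17% of all genes in that direction. The 4 collecting duct markers summed to 158.7, 144.1 and 164.5 FPKM in diosmetin libraries, against 112.9 and 138.7 FPKM in vehicle libraries, with no overlap. All 4 had a higher mean in diosmetin and 3 were without overlap, where 18.3% of all genes were. Aqp2 overlapped, with 80.1, 68.6 and 93.0 FPKM in diosmetin libraries, against 63.6 and 80.2 FPKM in vehicle libraries. The 2 markers of the thick ascending limb summed to 1370, 2178 and 1950 FPKM in diosmetin libraries, against 1283 and 1593 FPKM in vehicle libraries. The 3 podocyte markers summed to 147.5, 138.5 and 126.3 FPKM against 122.1 and 237.2 FPKM. Both sums overlapped between the groups. Vehicle replicate 2 was highest for the 7 macrophage markers (109.6, 51.5 and 55.6 FPKM in diosmetin libraries against 30.9 and 157.0 FPKM in vehicle libraries) and for the sum of 9 lymphocyte markers (8.51, 5.87 and 6.60 FPKM against 3.89 and 12.3 FPKM), 7 of which averaged under 0.5 FPKM. That sum was mostly Ptprc, a gene of all leukocytes, and the other 8 summed to 2.45, 2.11 and 2.93 FPKM in diosmetin libraries, against 2.03 and 2.80 FPKM in vehicle libraries, with overlap. The 6 markers of red blood cell precursors summed to 223.3, 700.3 and 545.5 FPKM in diosmetin libraries, against 417.9 and 745.0 FPKM in vehicle libraries. No marker was at 0 in every library, and the defining markers of the proximal tubule (Slc34a1), thick ascending limb (Umod) and collecting duct (Aqp2) were all well above 0 in each. The part of these differences in the ribosomal protein result was not tested.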

How the data were processed

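Kidney RNA of NZB/NZW F1 mice (3 diosmetin, 2 vehicle libraries) was analysed from 1 table that the authors deposited under the name FPKM. Its values are neither whole nor of equal sum between libraries. Per the labels' protocols, total RNA was depleted of ribosomal RNA and made into stranded, paired-end libraries. GRCm38 is the build named in the submitters' processing notes. Neither the aligner nor the counter or its strand setting is given in the sources used here, and near-identical copies may exchange fragments. Columns were matched by sample code.

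Tests used log2(FPKM + 1), a scale on which folds of low genes are understated. Genes averaging 0.5 FPKM or more (13290, with 84 of 87 members) were tested with limma (mean-variance trend, two-sided, Benjamini-Hochberg at 0.05, 3 residual degrees of freedom), a procedure tested on simulated data. With genes drawn independently, it recovered 23.6% of simulated log2 differences of 0.5 and 79.6% of those of 1. Differences as small as the member median of 0.20 were not simulated. Groups do not overlap where every diosmetin value lies above, or every one below, both vehicle values. Depth was estimated from the steps of low values and GENCODE M21 transcript lengths, and 56.8 to 60.7% of low values fell within 0.1 of a whole fragment. Counting error covers sampling of fragments only. Starts came from the RefSeq promoter table (GRCm38.p6), and shared 50-base words from GENCODE M21 transcripts. Alternatives were a pseudocount of 0.1, other filters (none, mean FPKM of 5), no variance trend, 6 other scalings, the standard members alone and leaving out each library. Leaving out Rpl32l and Rpl37rt from the standard members, and the split by shared sequence, were added after the data were seen. The members and gene lists were chosen with earlier results of these data known. Named genes are the members called, filled to 6 per direction by the smallest p at a mean FPKM of at least 1, the 5 most and 3 least abundant, the 4 most variable, a set chosen by role and the 2 smallest p of each other list. Rpl4, Rpl7a, Rpl8, Rpl15, Rpl27, Rpl27a, Rpl28, Rpl34, Rpl35, Rpl35a, Rpl37, Rpl37a, Rps9, Rps15a and Rps20 were named after their values were seen. Certain genes within the counts and sums are not reported here individually. Software was R 4.3.3 with limma 3.58.1 and Python 3.11.15 with pandas 2.3.3, numpy 2.4.6 and matplotlib 3.10.9.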

Additional observations from a re-analysis of the deposited data

How the results depend on the processing

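Under 17 alternatives no member was called by limma. The median log2 difference of the members lay between 0.14 and 0.24 (0.25 over the 12 members with little shared sequence). Those of the large and small subunit lay between 0.12 and 0.21 and between 0.15 and 0.26. Between 61 and 76 members were without overlap with diosmetin higher, and 76 to 80 had a higher mean. The background moved as well. Of all genes, 11.7% were without overlap with diosmetin higher under median-of-ratios scaling, and 45.2% without vehicle replicate 2. A higher mean was found in 6488 of 13290 genes under median-of-ratios scaling, against 63.9% as deposited. The count at an unadjusted p under 0.05 in limma, 39 as reported, was 22 under median-of-ratios scaling and 22 when its factors left out the members. It was 24 under upper quartile scaling and 18 to 35 with single diosmetin libraries left out, lowest without diosmetin replicate 2. Of all 13290 genes, 622 were higher at that p as reported and 388 under median-of-ratios scaling. Without diosmetin replicate 2 there were 271 such genes, and without diosmetin replicate 1 there were 828. The cause of these changes was not tested. Among the 57 genes that the naming rule gives, 849 of 853 values kept their direction and side of the threshold. The 4 that changed sign were of genes whose groups overlapped. Rps27a ran from -0.359 to 0.077 with single libraries left out (0.077 without diosmetin replicate 1), Rps27l from -0.063 to 0.007 (0.007 without vehicle replicate 2), and Rps27rt from -0.205 to 0.143 (0.019 without diosmetin replicate 2, 0.143 without vehicle replicate 1). Among all 84 tested members, 6 changed sign at least once, in 18 of 1259 values. The other 3 were Rpl27, Rpl34 and Rpl37a, named after their values were seen, which were below 0 under 3 scalings and with 1 or 2 of the single libraries left out, at lowest -0.03, -0.02 and -0.04. With vehicle replicate 1 or 2 left out, the lone vehicle library is assumed to vary like the diosmetin libraries. No paired analysis was possible because replicate numbers were given in accession order and do not pair libraries. Counting error at the estimated depth was at most 5.4% for the standard members with a reference length.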
